A study of Mus musculus with 12 samples.

Results

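The major acute-phase proteins of the mouse liver were followed through 10 genes: the serum amyloid A genes Saa1, Saa2, Saa3 and Saa4, lipocalin 2 (Lcn2), the orosomucoids Orm1, Orm2 and Orm3, haptoglobin (Hp) and leucine-rich alpha-2-glycoprotein 1 (Lrg1). They were taken by symbol from a table of liver transcript levels, and all 10 were found, each in a single row, among 23849 symbols. Levels are FPKM, which scale the reads of a gene by its transcript length and by the depth of the library. All 10 genes averaged 1 FPKM or more across the livers, and were tested among the 9806 genes that did. Male C57BL/6J background mice, 8 weeks old, received a high-fat diet. Cntrl mice were given vehicle (drinking water by gavage) and Libramed mice a gel-forming blend of fibers, which the study calls Policaptil Gel Retard. Either was given for 2 weeks, which the paper describes as the last 2 of a longer period on the diet. Livers were collected at ZT0 or at ZT12, the end and the start of the active phase of the mouse, giving the groups Cntrl ZT0, Libramed ZT0, Cntrl ZT12 and Libramed ZT12 with 3 mice each. Mice on normal diet were not analysed here, so every comparison is within the high-fat diet.

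The acute-phase response is the change in the proteins that hepatocytes secrete into the blood during infection, injury or inflammation. Cytokines such as interleukin 6 and interleukin 1, released by macrophages and other cells, act on the hepatocyte through STAT3 and NF-kB, together with C/EBP factors and the glucocorticoid receptor. Positive acute-phase genes rise and negative ones, such as albumin and transthyretin, fall. Saa1 and Saa2 are the inducible serum amyloids of the liver and are carried on high density lipoprotein, whereas Saa4 is expressed constitutively and Saa3 is made largely outside the hepatocyte.

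The 4 serum amyloid genes lie together on chromosome 7 and the 3 orosomucoid genes together on chromosome 4 (mm10, GENCODE vM21). Saa3 (ENSMUSG00000040026.8) spans chr7:46711998-46715700 on the minus strand, Saa4 (ENSMUSG00000040017.8) chr7:46727998-46732603 minus, Saa1 (ENSMUSG00000074115.5) chr7:46740497-46742980 minus and Saa2 (ENSMUSG00000057465.5) chr7:46751790-46754313 plus. Orm1 (ENSMUSG00000039196.2) spans chr4:63344560-63348163, Orm3 (ENSMUSG00000028359.4) chr4:63356162-63359511 and Orm2 (ENSMUSG00000061540.3) chr4:63362449-63365878, all on the plus strand. Lcn2 is at chr2:32384633-32388252, Hp at chr8:109575128-109579172 and Lrg1 at chr17:56119678-56122001, all minus. All 10 are annotated as protein coding.

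Promoter windows of 250 bases before the RefSeq start (GRCm38.p6) were found for 8 of the 10 genes, all but Orm1 and Hp. They were searched on both strands for the letters of 4 factors of the acute phase, and the stretches below are printed because they hold the C/EBP letters in the neighbouring genes whose levels are compared throughout. Capitals mark a match to TTGCNNAA, the C/EBP letters.
Saa1: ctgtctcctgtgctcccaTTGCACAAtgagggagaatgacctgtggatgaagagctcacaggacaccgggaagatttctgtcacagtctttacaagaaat
Saa2: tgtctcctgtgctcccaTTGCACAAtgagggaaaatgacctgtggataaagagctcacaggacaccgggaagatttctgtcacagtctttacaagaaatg
Orm2: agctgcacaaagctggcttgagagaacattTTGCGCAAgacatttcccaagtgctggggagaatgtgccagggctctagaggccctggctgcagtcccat
Orm3: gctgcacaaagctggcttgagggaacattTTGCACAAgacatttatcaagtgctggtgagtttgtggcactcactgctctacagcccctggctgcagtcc
The stretches are chr7:46743081-46743180 (minus strand), chr7:46751633-46751732 (plus), chr4:63362299-63362398 (plus) and chr4:63356008-63356107 (plus), each 100 bases long. The Saa1 and Saa2 stretches were 96.0% identical and those of Orm2 and Orm3 80.8%. Over the whole windows, the identity was 94.8% for Saa1 and Saa2 and 85.5% for Orm2 and Orm3.

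The C/EBP letters were found in 7 of the 8 windows, those of Saa1, Saa2, Saa3, Saa4, Lcn2, Orm2 and Orm3, and were absent from that of Lrg1. Among 32851 RefSeq windows of the same length, 9.56% hold them. The match began 182 bases before the start in Saa1 (position -182), and at -183 in Saa2, -99 in Saa3, -216 in Lcn2, -120 in Orm2 and -121 in Orm3, while Saa4 had matches at -245 and -52. The glucocorticoid receptor letters ACANNNTGT, held by 5.84% of all windows, were found in Lcn2 at -152 and in Orm3 at -38. The letters used for STAT3 (TTCNNNGAA, 7.02% of all windows) and for NF-kB (GGGNN followed by TTTCC or TTCCC, 2.82%) were not in these windows. No match overlapped another, and the matches are a description of letters only.

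These genes held a large and variable part of the liver transcriptome. Together they made up 2.23% to 4.27% of the summed FPKM in Cntrl ZT0 livers, 1.07% to 1.68% in Libramed ZT0, 1.5% to 4.68% in Cntrl ZT12 and 1.25% to 3.76% in Libramed ZT12. In mean FPKM over the 12 livers, Hp (7376), Saa1 (4069.9) and Saa2 (2331) were the highest, ranks 12, 21 and 39 of all symbols. They were followed by Lrg1 (1411), Orm1 (1309), Saa4 (272), Lcn2 (144), Orm2 (69.9), Saa3 (24.6) and Orm3 (4.43). Neighbours in this order such as Lrg1 and Orm1 had overlapping ranges over the livers (771 to 2501 and 623 to 2154 FPKM). The ratio of the highest to the lowest liver was 199 for Saa2, 70.7 for Saa1, 44.2 for Lcn2, 36.7 for Orm3 and 35.2 for Orm2, and between 2.27 and 4.42 for the other 5 genes.

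The summed FPKM of a library ranged from 634683 to 759355, of which the 10 most abundant genes made up 23.9% to 28.7%. The table holds no read totals and the absolute depth is unknown. If values under 0.1 FPKM follow whole reads, which is not settled, they put the depth of the libraries at 0.714 to 1.28 times that of Cntrl ZT0 replicate 1. All 8 hepatocyte markers were above the test level, but albumin (Alb) is listed at 0 in all 12 livers, as a failed estimate would be. In whole liver RNA, fewer cells of a type and less RNA per cell cannot be told apart.

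Values below are FPKM in replicates 1, 2 and 3. Differences are in log2(FPKM + 1), a scale that understates the change of genes with low FPKM, and were tested 2-sided with limma. A gene was called when its Benjamini-Hochberg adjusted p over the 9806 genes was under 0.05. Unadjusted p under 0.05 is given as a weaker rule. The study used p under 0.05 in a Cyber t-test and does not say whether that p was adjusted.

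**Figure D1:**
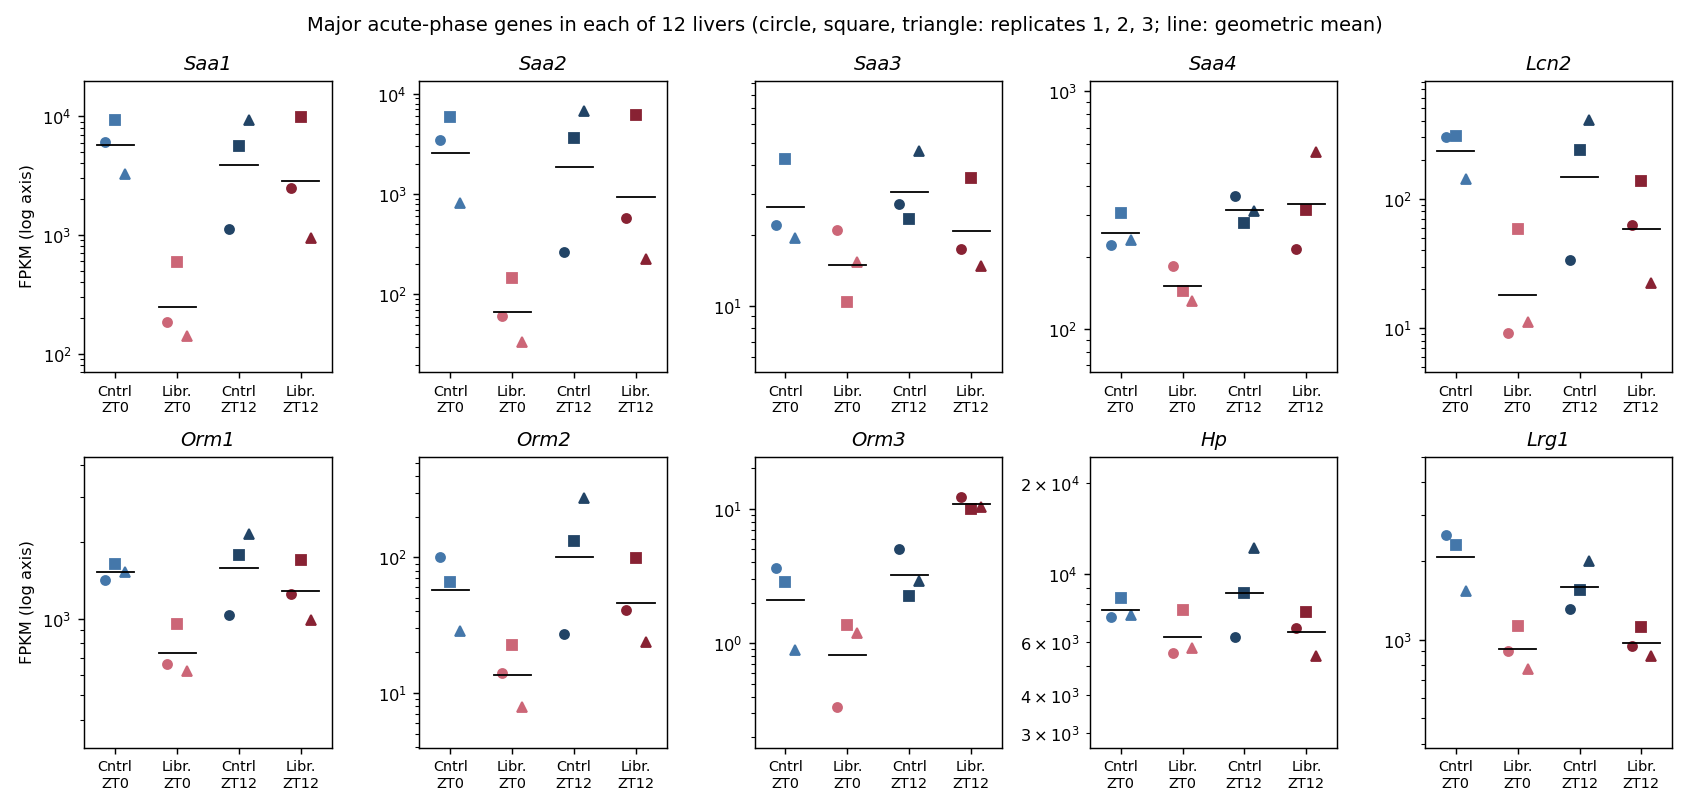
FPKM of each of the 10 genes (log axis) in each liver of the 4 groups, with a circle, square and triangle for replicates 1, 2 and 3 and a line at the geometric mean of each group. For Saa1, Saa2 and Lcn2 the 3 Libramed ZT0 livers lie below all Cntrl ZT0 livers, and for Orm3 the 3 Libramed ZT12 livers lie above all others.

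The comparison of Libramed with Cntrl at ZT0 asks whether the product was accompanied by another hepatic acute-phase level at the end of the active phase. All 10 genes had a lower mean log2 level with Libramed, and for 7 of them (Saa1, Saa2, Saa4, Lcn2, Orm1, Orm2 and Lrg1) every Libramed liver was below every Cntrl liver. Among all genes tested, 9.94% were separated in that direction. The median log2 difference was -1.11 over the 10 genes and -0.02 over all genes.

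Saa1 was at 6049.7, 9291 and 3252 in Cntrl ZT0 and at 183, 593 and 139.8 in Libramed ZT0. The highest Libramed liver was thus below the lowest Cntrl liver, by a factor of 5.48. The group means differed 20.3-fold, and the log2 difference was -4.51 (SE 0.587, 95% interval -5.89 to -3.13, adjusted p = 0.264 by limma). Saa2 was at 3461, 5895 and 815 in Cntrl ZT0 and at 61.1, 146 and 33.7 in Libramed ZT0. It differed 42.2-fold between the means and by -5.23 in log2 (SE 0.787, adjusted p = 0.264, limma), again with no overlap.

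Lcn2, which binds bacterial siderophores and so withholds iron, was at 300.1, 304 and 142 in Cntrl ZT0 and at 9.20, 58.8 and 11.2 in Libramed ZT0. The means differed 9.41-fold and the log2 difference was -3.59 (SE 0.669, adjusted p = 0.295, limma). Saa2, Saa1 and Lcn2 were the 3 genes with the lowest log2 difference of all 9806 tested, in that order. Their p-values ranked 9, 3 and 27.

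The orosomucoids are acidic plasma glycoproteins that bind drugs and lipids. Orm1 was at 1419.95, 1642 and 1521 in Cntrl ZT0 and at 664, 949 and 623 in Libramed ZT0. It varied little within Cntrl ZT0, with an SD of 7.28% of the mean, and its log2 difference was -1.06 (SE 0.174, adjusted p = 0.264, limma). Orm2 was at 100.4, 65.3 and 28.8 in Cntrl ZT0 and at 14.0, 22.6 and 7.87 in Libramed ZT0, a log2 difference of -2.0 (SE 0.498, adjusted p = 0.414, limma). Orm3 was at 3.64, 2.87 and 0.882 in Cntrl ZT0 and at 0.333, 1.38 and 1.2 in Libramed ZT0. These ranges overlapped, and the difference of -0.76 had a 95% interval from -1.62 to 0.10.

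Lrg1, a secreted glycoprotein that modulates transforming growth factor beta signalling, was at 2501, 2307 and 1532 in Cntrl ZT0 and at 901, 1128 and 771 in Libramed ZT0. Its log2 difference was -1.16 (SE 0.222, adjusted p = 0.295, limma). Saa4 was at 225, 308 and 236 in Cntrl ZT0 and at 185, 144 and 131 in Libramed ZT0, a log2 difference of -0.74 (SE 0.171, adjusted p = 0.336, limma). The constitutive serum amyloid thus also had separate groups, with a difference far smaller than that of Saa1.

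Saa3 was at 22.2, 42.7 and 19.4 in Cntrl ZT0 and at 21.1, 10.4 and 15.4 in Libramed ZT0. Its groups overlapped, and the interval of the difference ran from -1.57 to 0.02. Hp, which captures free hemoglobin, was at 7241, 8390.3 and 7370.4 in Cntrl ZT0 and at 5516, 7617 and 5704 in Libramed ZT0. The most abundant gene of the set thus differed least, by -0.30 (95% interval -0.68 to 0.08).

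With limma, 0 of the 10 genes passed the adjustment at ZT0, and 0 of all 9806 (0%). Under the weaker rule the 7 separated genes had p under 0.05, against 5.81% of all genes in that direction (9.23% in either). Leaving out each library in turn gave 7 to 9. A variance pooled over genes of neighbouring level, after the test of the study, called 6 of the 10 and 69 genes in all. Without Libramed ZT0 replicate 2, whose Saa1, Saa2 and Lcn2 were the highest of its group, Saa1 and Lcn2 had an adjusted p of 0.0410 in limma. By exact permutation each of the 7 genes had p = 0.1, the smallest that 3 against 3 mice allows.

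**Figure D2:**
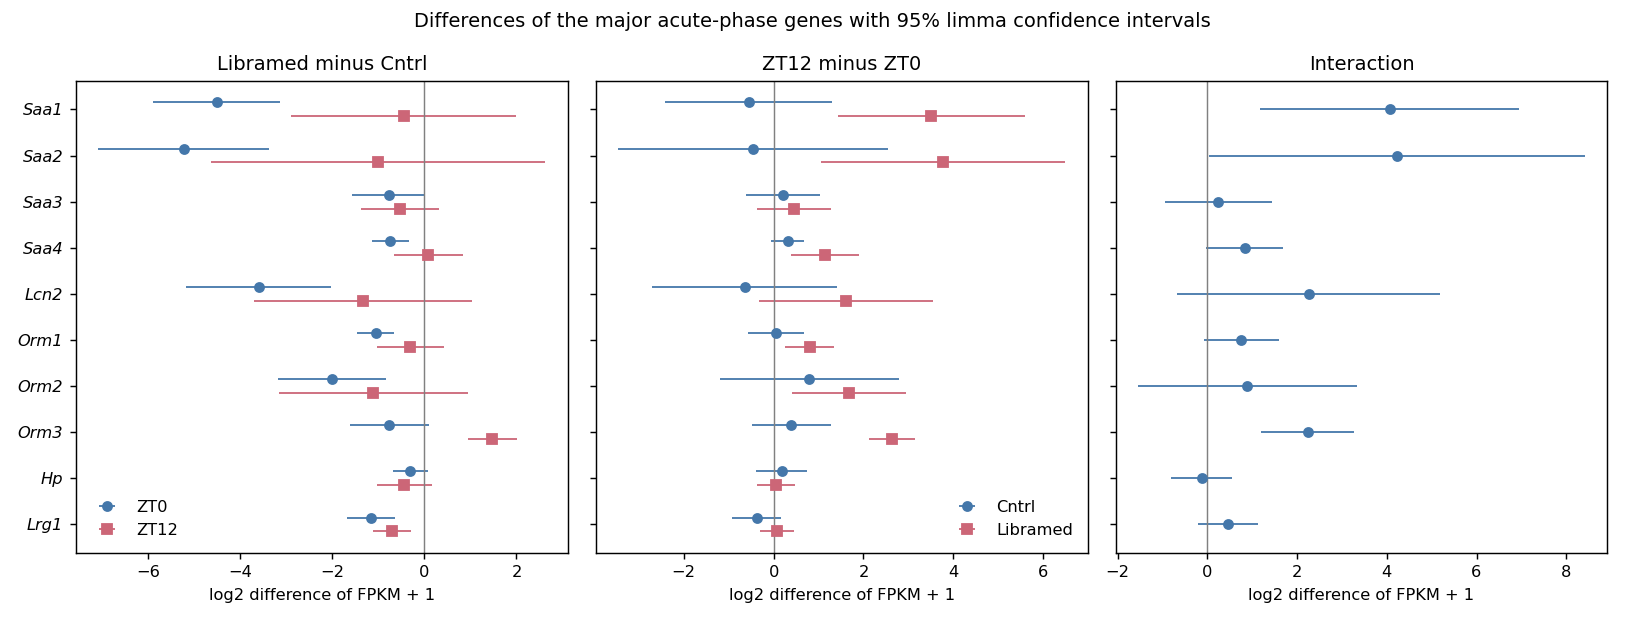
Log2 difference of FPKM + 1 with its 95% interval from limma for each of the 10 genes, for treatment at each time (left), time in each treatment (middle) and their interaction (right). At ZT0 all 10 points lie below 0, with Saa2 (-5.23), Saa1 (-4.51) and Lcn2 (-3.59) farthest from it, whereas at ZT12 the intervals of Saa1 and Saa2 include 0.

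At ZT12, the start of the active phase, Saa1, Saa2, Lcn2 and Orm2 spread widely within both groups, whereas Lrg1 and Orm3 varied little within Libramed ZT12. Of the 10 genes, 8 had a lower mean with Libramed and 2, Saa4 and Orm3, a higher one. Only Lrg1 (lower) and Orm3 (higher) had groups that did not overlap, against 7.26% and 5.88% of all genes in those directions. The median log2 difference was -0.49 for the set and -0.01 for all genes.

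Orm3 was at 5.05, 2.26 and 2.88 in Cntrl ZT12 and at 12.2, 10.1 and 10.3 in Libramed ZT12. All 3 Libramed livers lay above every other liver of the study, while the gene remained the least abundant of the set. The log2 difference was 1.48 (SE 0.222, adjusted p = 0.590, limma), rank 5 by p and 11 by size of increase among 9806 genes. Lrg1 was at 1304, 1545 and 2003 in Cntrl ZT12 and at 948, 1120.3 and 869 in Libramed ZT12, a log2 difference of -0.71 (SE 0.173, adjusted p = 0.729, limma). It is the gene of the set that had separate groups, lower with Libramed, at both times.

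Saa1 was at 1116, 5588 and 9336 in Cntrl ZT12 and at 2459.8, 9887 and 942 in Libramed ZT12. The lowest and the highest livers of both groups lay close to each other, and the difference of -0.45 had a 95% interval from -2.89 to 1.99, wide enough to include a large change in either direction. Saa2 followed the same livers, at 266, 3623 and 6706 in Cntrl ZT12 and at 573, 6168 and 227 in Libramed ZT12. The directions of Saa1 and Saa2 rest on single libraries: without Libramed ZT12 replicate 3 the differences were 0.35 and 0.01, and without Cntrl ZT12 replicate 3 that of Saa1 was 0.19.

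Lcn2 was at 33.8, 239 and 407 in Cntrl ZT12 and at 63.3, 139 and 22.6 in Libramed ZT12. Orm2 was at 27.2, 132 and 277 in Cntrl ZT12 and at 41.2, 99.1 and 23.7 in Libramed ZT12. In both genes the Cntrl livers spread by more than the groups differed. Orm1 was at 1029, 1773 and 2154 in Cntrl ZT12 and at 1251, 1693 and 987 in Libramed ZT12. Hp was at 6234, 8682 and 12194 in Cntrl ZT12 and at 6648, 7538 and 5378 in Libramed ZT12. Their log2 differences, -0.30 for Orm1 and -0.43 for Hp, had intervals that include 0. Saa3 was at 27.1, 23.4 and 45.9 in Cntrl ZT12 and at 17.5, 35.4 and 14.8 in Libramed ZT12. Saa4 was at 362, 278 and 313 in Cntrl ZT12 and at 216, 317 and 553 in Libramed ZT12, the only serum amyloid with a mean above the Cntrl group. That direction of Saa4 turned to -0.27 without Libramed ZT12 replicate 3, its highest liver, and to -0.00178 without Cntrl ZT12 replicate 2.

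With limma 0 of the 10 genes passed the adjustment at ZT12 (0% of all genes), and 2 had p under 0.05, Lrg1 and Orm3, against 3.67% of all genes lower and 3.07% higher (6.74% in either direction). The test with variance pooled over neighbouring genes called 1, Orm3, and 23 genes in all. Leaving out each library gave 2 to 6 genes with p under 0.05, and the 6 were reached without Cntrl ZT12 replicate 1, the lowest Cntrl liver for 7 of the 10 genes. The share of all genes with p under 0.05 was not counted in these fits, so the 6 cannot be set against it.

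The comparison of ZT12 with ZT0 within each treatment describes the difference of these genes between the collection times. The methods place the daily gavage just before lights off, shortly before ZT12. Time of day and time since gavage therefore cannot be told apart. In Cntrl mice none of the 10 genes changed by either rule, although 27.4% of all genes had p under 0.05 and 10.4% passed the adjustment. Here 6 genes had a higher and 4 a lower mean at ZT12, with a median log2 difference of 0.12. The widest interval was that of Saa2, from -3.46 to 2.55, and the narrowest that of Saa4, from -0.05 to 0.68. Single libraries decided the directions of Saa1, Saa2 and Lcn2: without Cntrl ZT12 replicate 1 the differences were 0.35, 0.95 and 0.41 in place of -0.55, -0.45 and -0.65, 2 genes had p under 0.05 and the means of 9 were higher. For Saa2 the same happened without Cntrl ZT0 replicate 2 (0.15).

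In Libramed mice all 10 genes had a higher mean at ZT12 than at ZT0, with a median log2 difference of 1.37 against 0.01 for all genes. For 6 of them (Saa1, Saa2, Saa4, Orm1, Orm2 and Orm3) every ZT12 liver was above every ZT0 liver, where 19% of all genes were separated in that direction. The same 6 had p under 0.05, against 15.7% of all genes higher and 29.2% in either direction. Both called genes, Orm3 and Saa1, were higher at ZT12, with 7% of all genes called in that direction and 12.4% in either. Orm3 rose by 2.63 in log2 (SE 0.217, adjusted p = 0.00135, limma), from a mean of 0.969 to 10.9 FPKM. Saa1 rose by 3.51 (SE 0.880, adjusted p = 0.0447, limma), 14.5-fold between means.

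Saa2 differed by 3.77 (SE 1.16, adjusted p = 0.0764, limma), Orm2 by 1.68 (SE 0.539, adjusted p = 0.0866), Saa4 by 1.14 (SE 0.320, adjusted p = 0.0611) and Orm1 by 0.80 (SE 0.232, adjusted p = 0.0658). Hp and Lrg1 differed by 0.06 and 0.08, with intervals of -0.36 to 0.47 and -0.30 to 0.46. The Saa1 call did not hold without Libramed ZT0 replicates 1, 2 or 3 or Libramed ZT12 replicates 1 or 2 (adjusted p = 0.117, 0.0527, 0.127, 0.0857 and 0.0845, limma), and held without Libramed ZT12 replicate 3. Without Libramed ZT12 replicate 1, Saa4 was called in its place (adjusted p = 0.0237). Comparisons of time and of treatment share livers: the 3 Libramed ZT0 livers enter both the difference at ZT0 and the difference over time in Libramed mice.

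Whether the treatment difference itself differed between the times was tested by the interaction, where a positive value means a higher Libramed level, relative to Cntrl, at ZT12 than at ZT0. Its log2 value was above 0 for 9 of the 10 genes and -0.13 for Hp. None passed the adjustment in limma (0% of all genes), and 3 had p under 0.05: Saa1 (4.06, SE 1.31, adjusted p = 0.597), Saa2 (4.22, SE 1.91, adjusted p = 0.751) and Orm3 (2.24, SE 0.472, adjusted p = 0.428). Among all genes 6.63% had p under 0.05 (3.82% above 0). The exact permutation of treatments within each time gave p = 0.1 for Saa1, 0.19 for Saa2 and 0.015 for Orm3. It assumes no treatment effect at either time, so it does not test the interaction alone. Leaving out each library gave 2 to 5 genes with p under 0.05, and 5 were reached without Libramed ZT0 replicate 2 or without Cntrl ZT12 replicate 3.

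Over both times together, with time in the fit, 9 of the 10 genes were lower with Libramed and 8 had p under 0.05, against 6.28% of all genes in that direction and 10.1% in either. None passed the adjustment, where 0.0204% of all genes did. Lrg1 had the smallest p of the set, rank 5 of all genes, with a difference of -0.94 (SE 0.159, adjusted p = 0.122, limma) and an exact permutation p = 0.005, the smallest that permuting within the times allows. The exact p was 0.025 for Lcn2, 0.03 for Orm1, 0.045 for Saa1, Saa2 and Orm2, 0.05 for Hp and 0.065 for Saa3. Saa4 (-0.32) and Orm3 (0.36) did not reach p under 0.05. Leaving out each library gave 6 to 8 genes with p under 0.05.

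Saa1 and Saa2 moved together, but not in proportion. Saa1 was 1.75 and 1.58 times Saa2 in Cntrl ZT0 replicates 1 and 2, 1.54 and 1.39 times in Cntrl ZT12 replicates 2 and 3, and 1.60 times in Libramed ZT12 replicate 2. In the other 7 livers, those with the lower Saa1, the ratio was between 3.00 and 4.3. Orm1 was 7.78 times Orm2 in Cntrl ZT12 replicate 3 and 79.1 times Orm2 in Libramed ZT0 replicate 3, the livers with the highest and the lowest Orm2. Near-identical copies make such values uncertain, since it is not settled how reads that fit several genes were counted: the Saa1 and Saa2 transcripts were 87.3% identical over their length and shared no stretch of 100 bases, while Orm1 and Orm2 were 91.0% identical and shared 47 of 676 such stretches (6.95%).

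**Figure D3:**
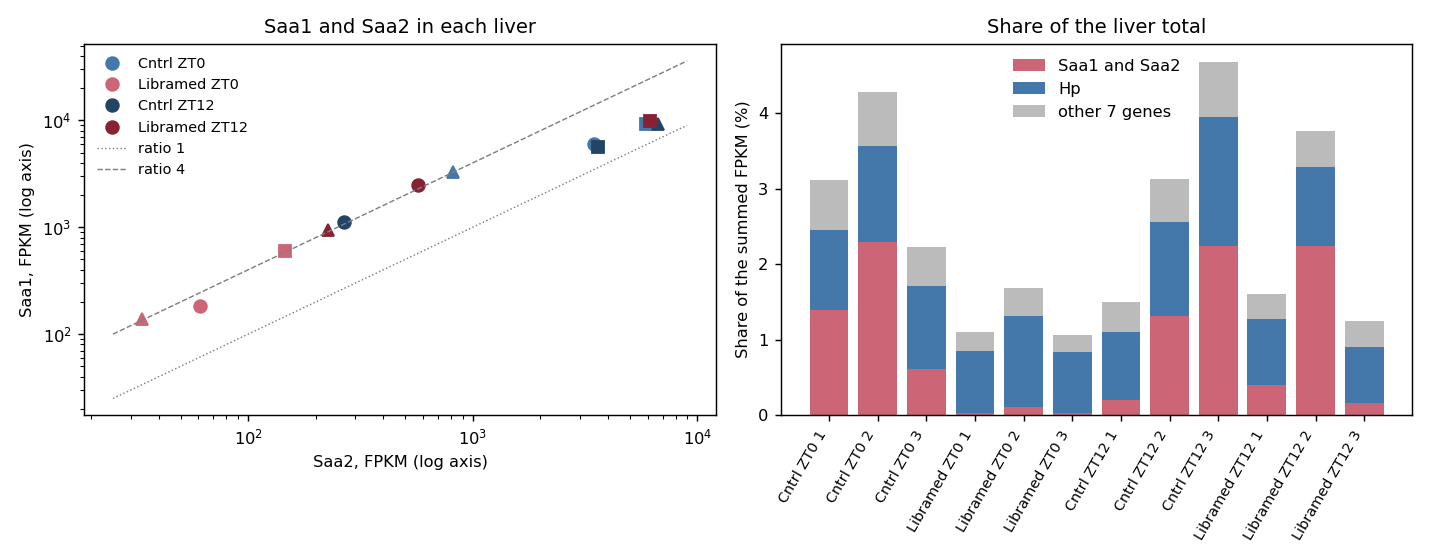
Left, Saa1 against Saa2 (FPKM, log axes) with a point per liver, colored by group and shaped by replicate, and lines at ratios of 1 and 4. Right, the share of the summed FPKM in each liver as stacked bars for Saa1 with Saa2, Hp and the other 7 genes. The 5 livers with the highest Saa1 have ratios of 1.39 to 1.75 and the others 3.00 to 4.3, and the total share is lowest in Libramed ZT0, at 1.07% to 1.68%.

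The genes largely varied together from liver to liver. In Cntrl ZT12, replicate 3 was the highest liver for 8 of the 10 genes and replicate 1 the lowest for 7. In Libramed ZT12, replicate 2 was the highest for 8 and replicate 3 the lowest for 8. In Libramed ZT0, replicate 2 was the highest for 8, and in Cntrl ZT0, replicate 2 was the highest for 7 and replicate 3 the lowest for 7. Over the 12 livers the median Pearson r of the 45 gene pairs, on log2(FPKM + 1), was 0.69, from -0.08 (Orm3 and Lrg1) to 0.98 (Saa1 and Saa2). After removal of the group means the median was 0.48. These values are descriptive, since the livers share their groups and each pair its libraries.

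Orm3 and Saa4 followed this pattern least. The r of Orm3 with the mean z-score of the set, which includes the gene itself, was 0.39, and that of Saa4 was 0.55, against 0.77 to 0.98 for the other 8. After removal of the group means, r with the other genes ran from -0.42 to 0.13 for Saa4 and from -0.23 to 0.34 for Orm3. The 5 genes outside the set with the highest r to this mean over the 12 livers were Cyb561 (0.96), Hpx (0.93), Serpina3n (0.91), Cpb2 (0.91) and Isyna1 (0.91). Hpx encodes the heme carrier hemopexin, Serpina3n a protease inhibitor and Cpb2 a carboxypeptidase that slows clot lysis, all made in the liver. The 5 lowest were 1700021F05Rik (-0.90), Frg1 (-0.89), Gimap4 (-0.88), Polr2c (-0.87) and Akr1c6 (-0.87).

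Other genes of the response were counted from lists of known function. Of 21 other positive acute-phase genes, 19 were tested, and all 19 had a lower mean with Libramed at ZT0, 13 of them with p under 0.05 (5.81% of all genes lower) and 10 with separate groups (9.94%). None passed the adjustment in limma, and their median log2 difference was -0.52. Hemopexin had the smallest p of the list, at 7202, 6853 and 6228 in Cntrl ZT0 and 3653, 4730.2 and 4028 in Libramed ZT0 (difference -0.71, SE 0.138, adjusted p = 0.295, limma). At ZT12, 17 of the 19 were lower, 5 with p under 0.05 (3.67% of all genes lower), with a median of -0.26. There the smallest p was that of ceruloplasmin (Cp), a copper-carrying ferroxidase, with a difference of -0.25 (SE 0.0704, adjusted p = 0.729, limma). Over both times all 19 were lower and 12 had p under 0.05 (6.28% of all genes lower), with Fgg, the fibrinogen gamma chain, at -0.40 (adjusted p = 0.122, limma).

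Over time this list was split, in both treatments, with 11 genes higher and 8 lower at ZT12. In Cntrl mice 2 of the 19 were called, where 10.4% of all genes were: Fgg and Fga, chains of fibrinogen, fell by 0.71 each in log2 (adjusted p = 0.0101 and 0.0127, limma). In Libramed mice 3 genes were called higher and 2 lower, where 12.4% of all genes were called in either direction. The metallothioneins Mt2 and Mt1, which bind zinc and copper, rose by 4.99 and 3.65 (adjusted p = 4.70e-04 and 0.00235), and Hamp, the iron hormone hepcidin, by 1.57 (adjusted p = 0.00835). Mt2 was at 3.21, 7.91 and 5.40 in Libramed ZT0 and at 174, 269 and 161 in Libramed ZT12. In Cntrl mice it spread from 29.7 to 1023 at ZT12, and the differences over time of Mt2 (3.58, SE 1.32, adjusted p = 0.134, limma) and Mt1 (2.92, SE 1.06, adjusted p = 0.131) were large too but not called.

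Of 10 negative acute-phase genes 9 were tested, Alb being at 0. At ZT0 7 of them had a higher mean with Libramed, and 0 had p under 0.05 in limma, with a median log2 difference of 0.20. The smallest p was that of Ahsg, fetuin A (0.23, adjusted p = 0.635, limma). At ZT12 6 were higher, and Apoa4, an apolipoprotein, was lower (-0.82, adjusted p = 0.729). Over time, Serpina6, which carries corticosteroids in plasma, rose by 1.57 in Cntrl mice (adjusted p = 0.0271) and by 1.31 in Libramed mice (adjusted p = 0.00468). Apoa4 rose by 0.72 in Cntrl mice (adjusted p = 0.0167, limma). These were 2 of the 9 genes called in Cntrl mice, where 10.4% of all genes were, and 1 of the 9 in Libramed mice (12.4% of all genes).

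The cytokine ligands that induce the response had low values in this table. Il22 is listed at 0 in all livers, as Alb is, and its level is not known. The highest values of Il6, Osm and Tnf were 0.0393, 0.0317 and 0.105 FPKM, and Il1b and Il1a reached 1.08 and 0.803. None of these 6 was above the test level, so their differences were not tested. Of the 13 genes of ligands and receptors 6 were tested, all receptors. At ZT0 only Il1rap, a subunit of the interleukin 1 receptor, had p under 0.05 (0.24, adjusted p = 0.538, limma), where 9.23% of all genes did, and at ZT12 none did. Il6ra, the interleukin 6 receptor, rose at ZT12 by 1.09 in Cntrl mice (adjusted p = 0.0489, limma) and by 1.35 in Libramed mice (adjusted p = 0.0101). It was the 1 gene of the 6 called over time in each treatment, where 10.4% of all genes were called in Cntrl and 12.4% in Libramed mice.

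Of 22 signal transducers and factors 20 were tested. At ZT0 2 of them, Cebpb and Stat3, had p under 0.05, a share near the 9.23% of all genes, and the median of the list was -0.07. Cebpb, a C/EBP factor, was at 81.2, 64.1 and 61.4 in Cntrl ZT0 and at 51.6, 49.8 and 45.3 in Libramed ZT0 (-0.48, SE 0.127, adjusted p = 0.436, limma). Cebpa, the more abundant C/EBP factor, was at 163, 177 and 174 in Cntrl ZT0 and at 209.8, 193 and 189 in Libramed ZT0 (0.20, SE 0.0917, adjusted p = 0.579, limma), so that these groups were separate in the other direction. At ZT12 none had p under 0.05. Over time 3 of the 20 were called in Libramed mice, a share near the 12.4% of all genes. There Cebpb rose by 1.49 from ZT0 to ZT12 (adjusted p = 4.70e-04, limma), Cebpd by 0.97 (adjusted p = 0.00625) and Hnf4a by 0.37 (adjusted p = 0.0221). In Cntrl mice 1 of the 20 was called, where 10.4% of all genes were: Cebpd rose by 0.70 (adjusted p = 0.0320, limma). The mean of Cebpb also rose in Cntrl mice, from 68.9 to 120 FPKM, but was not called. For Cebpb the interaction was 0.73 (SE 0.268, adjusted p = 0.665, limma).

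**Figure D4:**
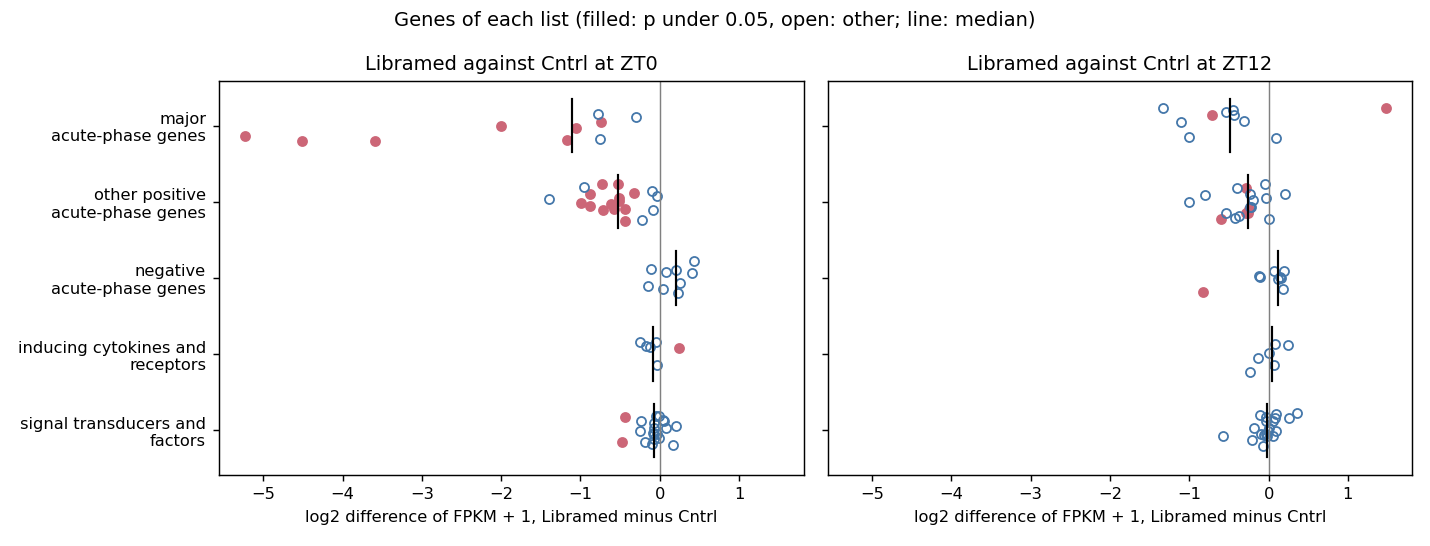
Log2 difference of FPKM + 1, Libramed minus Cntrl, for each tested gene of the set and of 4 lists at ZT0 (left) and ZT12 (right). Filled points have p under 0.05 in limma and lines mark list medians, which at ZT0 are -1.11 for the major acute-phase genes, -0.52 for the other positive and 0.20 for the negative acute-phase genes.

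Markers of other cells that can make these proteins were measured in the same livers. Neutrophils store Lcn2. Their 9 markers found in the table, 2 of them above the test level, summed to 1.49 to 11 FPKM in Cntrl ZT0 and 6.53 to 11.4 in Libramed ZT0. At ZT12 they summed to 0.811 to 3.58 in Cntrl and 2.54 to 19.9 in Libramed mice. The 2 tested, S100a8 and S100a9, were higher with Libramed at each time, 0 of them with p under 0.05. Over both times 1 had p under 0.05, as did 10.1% of all genes in either direction. The 9 macrophage markers summed to 42.5 to 49.7 in Cntrl ZT0 and 27.0 to 45.3 in Libramed ZT0, and 3 of the 6 tested (Vsig4, Cd68 and Clec4f) had p under 0.05, all lower (5.81% of all genes). Of these 6, 5 had a lower mean log2 level with Libramed at ZT0, and Lyz2 did not (mean FPKM 14.1 in Cntrl and 14.3 in Libramed). At ZT12 3 were higher and 3 lower, and 0 had p under 0.05. The part of macrophages in the differences was not tested. Of the 6 adipocyte markers, Lep and Retn are listed at 0 and Adipoq and Plin1 at most 0.0492 and 0.0381, while Cfd carried the sum, 3.08 to 8.12 in Cntrl ZT0 and 0.351 to 5.38 in Libramed ZT0. The 8 hepatocyte markers summed to 34909 to 38470.5 in Cntrl ZT0 and 39917 to 49379.8 in Libramed ZT0. The apolipoprotein Apoa1 carried this sum, with means of 22771 and 29394. Of the 8 markers 5 were higher and 3 lower with Libramed at ZT0. Apoa1 (0.36, higher) and Tat (-0.64, lower) had p under 0.05, as did 9.23% of all genes. At ZT12 6 were higher and 2 lower. There 4 were higher and 1 lower with p under 0.05 (6.74% of all genes in either direction). Separate groups were found for 5, higher (5.88% of all genes), and for 1, Apob, lower (7.26%). The 6 endothelial markers summed to 24.8 to 34.4 in Cntrl ZT0 and 32.3 to 40.2 in Libramed ZT0. Of the 5 tested, 2 had p under 0.05 at ZT0, both higher, where 9.23% of all genes did in either direction. Of the red cell markers only Alas2 was found, at 64.0 to 98.6 and 62.8 to 82.3. At ZT12 Cfd, which encodes complement factor D, had separate groups, lower with Libramed, as 7.26% of all genes did. The sum of this list, again carried by Cfd, was 12.7 to 43.4 in Cntrl and 2.79 to 11.2 in Libramed mice. Cidea, below the test level, averaged 0.142 in Cntrl and 0.239 in Libramed mice at ZT0, and 0.920 and 0.0450 at ZT12. With the other markers at or near 0, the sum rests largely on 1 gene.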

How the data were processed

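Liver RNA of 12 mice was sequenced, 3 mice in each group, which the labels call biological replicates. The authors deposited the levels of all genes in all samples as FPKM in 1 table. The methods call them RPKM. According to the methods, single-end reads were aligned with ELAND v2e to mm10 and UCSC splice junctions and only unique matches were kept, whereas the submitters' processing notes name TopHat, Cuffnorm, mm10 and GRCm38. The sources do not settle which was used. Of 177705 values above 0, 675 were under 1e-04 FPKM, as fractional estimates can be, so values need not stand for whole reads. The methods describe a stranded mRNA kit and the labels TruSeq RNA v2. No counts were used, so no counting error can be given and the number of mice limits the precision.

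For 289 rows that repeat a symbol, the row with the highest mean was kept. Genes that averaged 1 FPKM or more across the 12 livers (9806 of 23849 symbols) were analysed as log2(FPKM + 1), pseudocount 1, with limma 3.58.1 in R 4.3.3 (lmFit, eBayes with a mean-variance trend, 2-sided). Treatment was compared within each time and time within each treatment in fits of the 6 livers concerned, and the interaction and the treatment effect over both times in fits of all 12. Single genes were also tested by exact permutation, over 20 arrangements for 3 against 3 mice and 400 within the times. The fits were also run on simulated data in which genes varied independently. That run does not bear on counts of genes that vary together, as most of these 10 did. The 10 genes, the lists and the tests were chosen with earlier results of these data known. From each list, the text names up to 3 genes with the smallest p past the adjustment in a comparison or, where none passed in a treatment comparison, the gene with the smallest p. Stat3, Cebpa, the cytokine ligands, the macrophage, adipocyte and hepatocyte markers, the metallothioneins in Cntrl mice and genes of the interaction and of both times were named after their values were seen. Alternatives were a pseudocount of 0.1, no minimum level, a minimum of 5 FPKM, no trend, median-ratio scaling, quantile normalization, a replicate block, a fit of all 12 livers, a variance pooled over 101 genes of neighbouring level with prior weight 10, and each library left out in turn. For these alternatives the share of all genes with p under 0.05 was not counted. Promoter letters come from RefSeq windows and gene positions from GENCODE vM21. Scripts used Python 3.11.15.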

Additional observations from a re-analysis of the deposited data

Results flagged for a closer look

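The treatment difference of Orm3 had opposite signs at ZT0 and ZT12. Libramed minus Cntrl was -0.76 at ZT0 and 1.48 at ZT12 in log2(FPKM + 1), and the interaction of 2.24 had an exact permutation p = 0.015 over 400 arrangements. It was flagged because that permutation p was under 0.05, as it was for 1 of the 10 genes. Permuting treatments within each time assumes no treatment effect at either time, so it does not test the interaction alone. The adjusted p in limma was 0.428. Its levels were low, from 0.333 to 12.2 FPKM, and its transcript was 88.0% identical to that of Orm2 and 86.1% to that of Orm1. Over the fits that left out 1 library the interaction ranged from 1.98 to 2.63.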

How the results depend on the processing

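Each alternative changed 1 choice. Of 974 values of single genes under an alternative, 916 kept their direction and their side of the threshold. In the main fits only Orm3 and Saa1 over time in Libramed mice were called, so for most values this meant staying uncalled. The Saa1 call was lost without a minimum level (adjusted p = 0.135, limma) and with quantile normalization (adjusted p = 0.0638). Quantile normalization reversed Orm1 over time in Cntrl mice (-0.0632), and Hp (-0.0776) and Lrg1 (-0.137) over time in Libramed mice. The replicate block gave 2 called genes of the 10 at ZT0, Saa1 and Saa2, which were the 2 called in all, 5 over time in Libramed mice, 279 of all genes over time in Cntrl mice, 709 in Libramed mice and 0 over both times. Replicate numbers were not taken as pairs, since the correlation of same-numbered deviations ran from -0.28 to 0.34 and exceeded 0.1 in 4 of 18 pairs of livers. The variance pooled over neighbouring genes called 6 of the 10 at ZT0 (69 of all genes), 1 at ZT12 (23), where 5 then had p under 0.05, and 7 over time in Libramed mice (1584 of all genes). Without a minimum level 515 genes were called over time in Cntrl mice, 639 in Libramed mice (1 of the 10) and 1 over both times. A minimum of 5 FPKM left out Orm3, and gave 1 called gene of the 10 over time in Libramed mice, and 1 with p under 0.05 at ZT12 and 1 in the interaction. Quantile normalization left 1 called over time in Libramed mice. Over both times 0 of all genes were called with it, and 0 with median-ratio scaling. The fit of all 12 livers called 1539 genes over time in Cntrl mice. The cause of these shifts was not tested.

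With each library left out in turn, 0 to 2 of the 10 were called at ZT0 (0 to 7 of all genes), 0 to 0 at ZT12 (0 to 1), 1 to 2 over time in Libramed mice (535 to 1014), 0 to 0 in Cntrl mice (226 to 869), 0 to 0 in the interaction (0 to 1) and 0 to 0 over both times (0 to 1). The number with p under 0.05 ranged from 7 to 9 at ZT0, 2 to 6 at ZT12, 0 to 2 over time in Cntrl mice, 5 to 7 in Libramed mice, 2 to 5 in the interaction and 6 to 8 over both times. The share of all genes at this rule was not counted in these fits. Differences that changed sign ranged, at ZT12, from -1.35 to 0.35 for Saa1, -2.41 to 0.0124 for Saa2 and -0.27 to 0.41 for Saa4. Over time in Cntrl mice they ranged from -1.18 to 0.35 for Saa1, -1.38 to 0.95 for Saa2, -0.0679 to 0.55 for Saa3, -1.37 to 0.41 for Lcn2, -0.17 to 0.36 for Orm1 and -0.0563 to 0.43 for Hp. Over time in Libramed mice they ranged from -0.0549 to 0.20 for Hp and -0.0505 to 0.22 for Lrg1, and in the interaction from -0.12 to 0.52 for Saa3, -0.0339 to 1.62 for Orm2 and -0.37 to 0.11 for Hp. The table gives no depth, and 3 mice per group limit the precision.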
